A study of Mus musculus with 2 samples.

Results

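The members are 10 mouse genes that break haem down or move haem and related molecules across membranes: Hmox1, Hmox2, Blvra, Blvrb, Flvcr1, Flvcr2, Abcg2, Slc48a1, Abcb6 and Abcb10. They were listed by name, with earlier results of these data known. All 10 were found among the 42462 gene rows that matched the GENCODE M21 annotation. The samples were 2 libraries of poly(A)-selected, single-end RNA-seq from G1E-ER4, an immortalized mouse erythroid line that lacks its own working Gata1 and carries GATA-1 fused to an oestrogen receptor domain. The cells had been held in 10 nM 17beta-estradiol for 24 hours, which switches the fusion protein on and starts maturation, and the labels number the libraries as biological replicates 1 and 2. Both libraries form 1 group and no control was analysed here, so nothing below is a change, and values with ± are a mean and SD over n = 2. Both are listed under 1 biosample record, and nothing says that they came from separate cultures, so their spread may be technical. The line is labelled as postnatal, of age 0 day and male, and its GATA-1 activity comes from an introduced construct.

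Haem is an iron-bearing ring that is toxic when free, and an erythroblast makes it in large amounts for haemoglobin. Haem oxygenases open the ring and release iron, carbon monoxide and biliverdin, which biliverdin reductase A turns into bilirubin. Surplus haem or its porphyrin precursors can leave the cell through transporters of the plasma membrane, while other carriers act in lysosomes and mitochondria. In the body, most haem of old red cells is broken down in macrophages.

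Depth was 20412826 and 18564086 expected counts, each an estimate in which a read can be split among several transcripts. All 8 erythroid markers checked were at 1 TPM or more in both libraries (TPM is a transcript level per length, scaled to the same sum in each library). Of 10 markers of haem-recycling macrophages, 7 had 0 counts in both libraries, among them Adgre1, Cd163, Marco and Vcam1. Cd68, at 2.76 and 3.51 TPM, was the only macrophage marker above 1 TPM, and the list summed to 2.80 and 3.58 TPM. Of 6 hepatocyte markers 5 had 0 counts. Of all nuclear protein-coding genes 41.2% were at 1 TPM or more in both libraries, and the share at 0 counts was not computed. Although the line is labelled male, Y-linked coding genes summed to 3 counts in either library.

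The mean levels of the members ran from 0.115 TPM for Flvcr2 to 1924 TPM for Blvrb. Of the 10 members 9 passed 1 TPM in both libraries, against 41.2% of all 21461 nuclear protein-coding genes, and 4 passed 100 TPM, against 5.47%. Blvrb stood far above the others and alone held 64.4% of the summed TPM of the members in replicate 1 and 67.6% in replicate 2. The median member stood at 32.0 TPM, beside 0.08 TPM for all nuclear protein-coding genes. By mean TPM the order was Blvrb, Abcb10, Abcb6, Slc48a1, Abcg2, Hmox1, Hmox2, Flvcr1, Blvra and Flvcr2. No neighbours in this order overlapped between libraries, but Hmox1 and Hmox2 differed by less than counting error. The order follows the division by length, since Abcb10, with the longer mRNA, had more expected counts than Blvrb in both libraries.

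**Figure D1:**
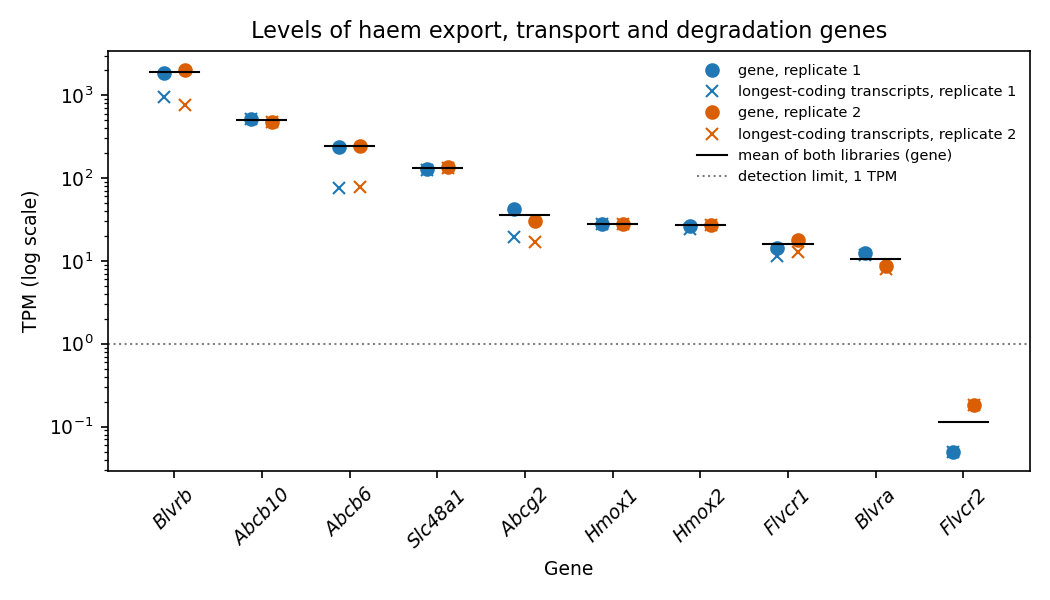
Points give TPM per gene on a log axis for replicate 1 (blue) and replicate 2 (orange), with the mean as a line, and crosses give the TPM of the transcripts with the longest CCDS coding sequence alone. Blvrb is highest at 1827 and 2021 TPM, Flvcr2 lies below the dotted line at 1 TPM, and the crosses fall well below the points for Blvrb, Abcb6 and Abcg2.

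Both haem oxygenase genes were transcribed at nearly the same moderate level. Hmox1 encodes the inducible haem oxygenase, which cells raise under haem load and oxidative stress. It stood at 27.8 TPM in replicate 1 and 28.1 TPM in replicate 2, from 700 and 645 expected counts. Hmox2, the constitutive form, stood at 26.6 and 27.3 TPM, from 658 and 608 expected counts. The values of each gene thus lay close together, with means of 27.9 ± 0.226 and 26.9 ± 0.474 TPM (SD, n = 2), at ranks 3672 and 3755 of the 21461 genes. The log2 ratio of Hmox2 over Hmox1 was -0.05 ± 0.01. Its 95% counting interval (Clopper-Pearson, counting error only) ran from -0.22 to 0.09 in replicate 1 and from -0.21 to 0.12 in replicate 2. A difference between both genes beyond counting error was therefore not detectable. The intervals leave out any error in dividing reads between Hmox2 and the overlapping gene Cdip1. Hmox1 lies on chromosome 8 from 75093621 to 75100589 on the plus strand (GRCm38), and Hmox2 on chromosome 16 from 4726361 to 4766742, also on the plus strand.

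All Hmox1 counts were assigned to the coding transcript Hmox1-201, of 867 coding bases, and the retained-intron form Hmox1-202 had 0 counts. No read-length word of Hmox1 (a stretch of 36 bases, as long as a read) occurs in another listed gene, so its level does not rest on a division between genes. Hmox2 was spread over transcripts with different start sites. Hmox2-201, from the upstream start, held 80.9% of the Hmox2 counts in replicate 1 and 68.7% in replicate 2. Hmox2-203, from the middle start, held 14.6% and 31.3%. Transcripts Hmox2-201, Hmox2-202 and Hmox2-203 start at different sites and each carry 945 coding bases. The Hmox2 gene overlaps Cdip1 on the opposite strand over 892 exonic bases. Only 56.1% and 57.9% of the Hmox2 words, weighted by counts, were found in no other gene on either strand. No source here says whether counting used strand. If it did not, reads of the shared bases cannot be told apart between Hmox2 and Cdip1, which stood at 24.7 and 29.5 TPM.

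The genes for both biliverdin reductases stood at very unequal levels. Blvrb encodes biliverdin reductase B, also known as flavin reductase, an abundant red cell enzyme. It was listed at 1827 TPM in replicate 1 and 2021 TPM in replicate 2, from 25732 and 24873 expected counts, with a mean of 1924 ± 137 TPM (SD, n = 2). This placed it at rank 46 of the 21461 nuclear protein-coding genes. Blvra encodes biliverdin reductase A, which makes the common form of bilirubin from the product of the haem oxygenases. It stood at 12.5 and 8.67 TPM, from 221 and 139 expected counts, with a mean of 10.6 ± 2.71 TPM. Blvrb was thus 146-fold higher than Blvra in replicate 1 and 233-fold higher in replicate 2, a log2 ratio of 7.53 ± 0.48. The counting intervals of this ratio did not overlap, since the upper bound in replicate 1 was 7.39 and the lower bound in replicate 2 was 7.62. Blvrb lies on chromosome 7 from 27447978 to 27466144 and Blvra on chromosome 2 from 127070665 to 127097084, both on the plus strand.

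Blvra was carried almost wholly by Blvra-201, with 96.0% and 93.8% of its counts. Blvrb instead was divided between 2 first exons. Blvrb-201 starts at the upstream exon, of 219 bases (27447978 to 27448196), and has 618 coding bases. Blvrb-202 starts at an exon of 133 bases farther downstream (27452418 to 27452550) and has 360 coding bases, and both coding sequences are in the CCDS set of agreed protein-coding regions. Blvrb-201 had 15099 and 11049 expected counts in the 2 libraries, and Blvrb-202 had 8486 and 12183. In TPM, Blvrb-201 held 51.9% and 37.7% of the gene and Blvrb-202 held 38.8% and 55.2%, so the leading transcript differed between the libraries. Counting only Blvrb-201, the level was 948 and 761 TPM, or 855 ± 132 TPM, and the log2 ratio to Blvra-201 was 6.46 rather than 7.53. Blvrb-203 and Blvrb-204, which share the upstream exon, held smaller parts. In all, the transcripts from the upstream exon held 67.0% of Blvrb counts in replicate 1 and 51.0% in replicate 2. The transcripts from the downstream exon have 130 distinct read-length words that those from the upstream exon lack, which in turn have 662 that the former lack. Blvrb-202 has 26 words found in no other Blvrb transcript and Blvrb-201 has 200.

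The 250 bases before each of these start sites are shown because the reads were divided between them (RefSeq, GRCm38.p6, plus strand, chr7:27447728-27447977 and chr7:27452168-27452417). Capitals mark matches, on either strand, to the GATA motif (A or T, then GATA, then A or G), to the CACCC-type motif CCNCNCCC, which Kruppel-like factors bind, or to TGACNNNGC, a core of the antioxidant response element. Matches may overlap.
Blvrb upstream start: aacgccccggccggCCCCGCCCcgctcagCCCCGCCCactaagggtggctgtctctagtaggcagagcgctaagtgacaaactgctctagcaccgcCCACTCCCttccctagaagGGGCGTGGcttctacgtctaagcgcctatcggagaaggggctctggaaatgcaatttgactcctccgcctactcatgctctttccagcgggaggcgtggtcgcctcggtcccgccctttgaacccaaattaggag
Blvrb downstream start: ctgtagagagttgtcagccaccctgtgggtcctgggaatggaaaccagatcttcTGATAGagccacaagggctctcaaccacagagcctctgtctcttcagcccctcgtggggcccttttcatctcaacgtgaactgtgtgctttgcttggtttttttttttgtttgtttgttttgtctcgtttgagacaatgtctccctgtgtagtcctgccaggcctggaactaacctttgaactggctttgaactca
The upstream start has 4 matches to CCNCNCCC, at 236, 221, 154 and 135 bases before it, and none to the GATA motif. The downstream start has 1 GATA match, TGATAG at 196 bases before it, and none to CCNCNCCC. Among 32851 windows of this length before RefSeq start sites, 45.9% hold CCNCNCCC, 26.5% a GATA motif and 10.2% TGACNNNGC. A match describes the letters and is not a measured binding site.

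Blvrb was 1 of 5 members in which no transcript held over 90% of TPM in either library, with Abcb6, Abcg2, Hmox2 and Flvcr1, out of the 9 that had at least 20 counts in each. Of 9101 nuclear protein-coding genes with as many counts, 55.3% met the same rule, a share close to that of the members.

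**Figure D2:**
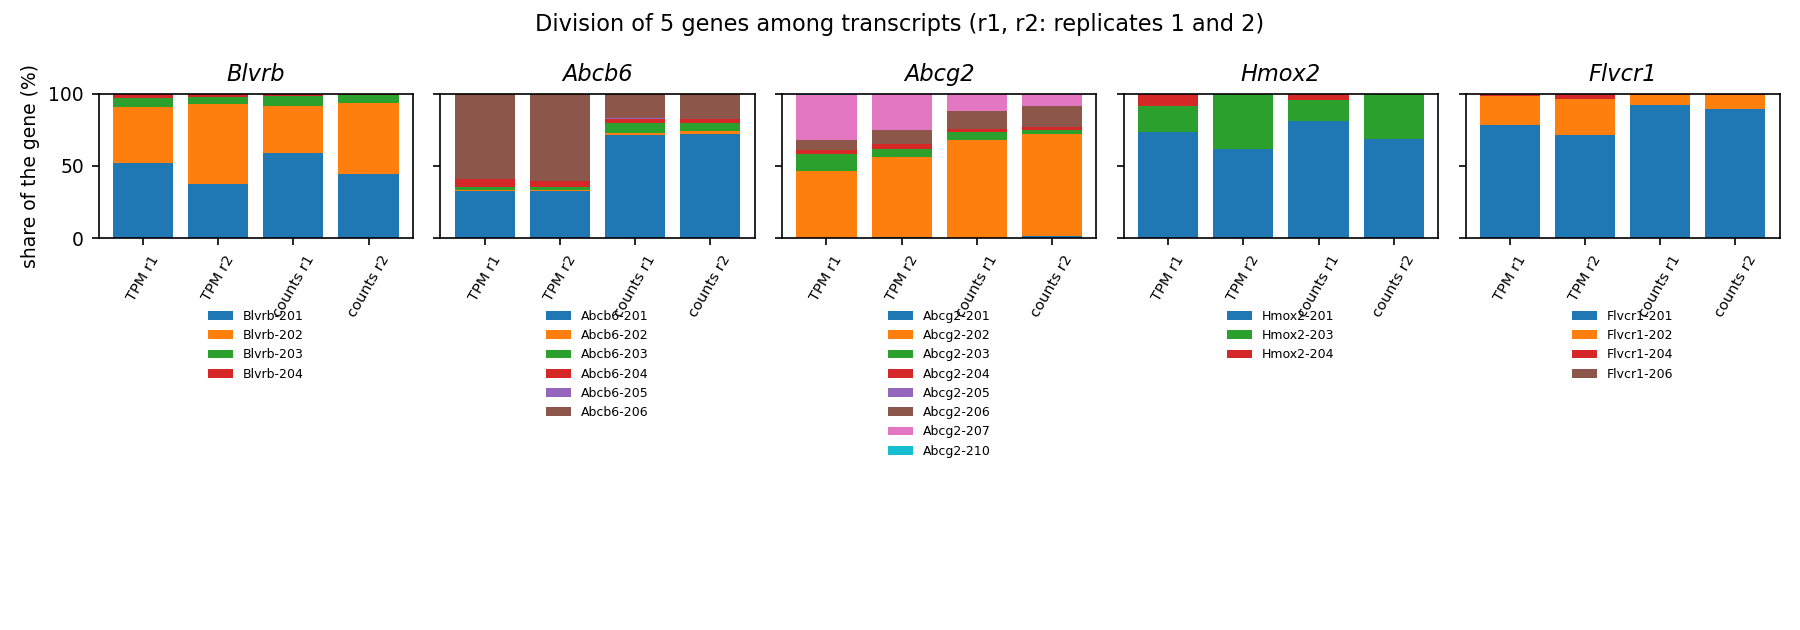
Stacked bars give the percent of each gene held by its transcripts, by TPM and by expected counts, in replicate 1 (r1) and replicate 2 (r2). Blvrb-201 and Blvrb-202 exchange first place between the libraries, and Abcb6-206 holds 59.1% and 60.5% of Abcb6 TPM but 16.9% and 17.5% of its counts.

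Among the transporters of the plasma membrane, Abcg2 and Flvcr1 were present at low to moderate levels and Flvcr2 was at the limit of detection. Flvcr1 encodes a membrane protein known as a haem exporter and needed for red cell formation. It stood at 14.5 TPM in replicate 1 and 17.7 TPM in replicate 2, from 787 and 826 expected counts, with a mean of 16.1 ± 2.31 TPM (SD, n = 2). Flvcr2, its close relative, had 3 and 9 expected counts, or 0.05 and 0.18 TPM. A gene with 0 reads could have held up to 3 counts, so the value in replicate 1 is at that floor. Flvcr1 exceeded Flvcr2 at a log2 ratio of 7.40 ± 1.10, with counting intervals of 6.49 to 10.32 in replicate 1 and 5.68 to 7.75 in replicate 2. Flvcr1 lies on chromosome 1 from 191005847 to 191026158 on the minus strand, and Flvcr2 on chromosome 12 from 85746539 to 85813585 on the plus strand.

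The full-length Flvcr1-201, of 10 exons and 1680 coding bases, held 92.3% and 89.6% of the Flvcr1 counts. By TPM its share was 78.1% and 71.3%, because the single-exon Flvcr1-202, of 1216 bases, had 54.7 and 77.1 counts on a shorter length. Flvcr1-202 carries 738 coding bases and consists of the first exon read on into the following intron. An antisense gene, A230020J21Rik, overlaps 809 exonic bases of Flvcr1 at that end and had 37.0 and 23.4 counts. Weighted by counts, 78.4% and 77.4% of the Flvcr1 words were found in no other gene on either strand. For Flvcr1-202 the share was 37.3%, so its counts may depend on how reads were divided with A230020J21Rik, which was not tested. With Flvcr1-201 alone the level was 11.3 and 12.6 TPM, or 11.97 ± 0.947 TPM.

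Abcg2 encodes an efflux pump that carries drugs and also porphyrins, the precursors of haem. It stood at 41.9 TPM in replicate 1 and 30.2 TPM in replicate 2, from 985 and 736 expected counts, with a mean of 36.1 ± 8.25 TPM (SD, n = 2). The gene lies on chromosome 6 from 58584523 to 58695676 on the plus strand and has several annotated start sites. Almost all reads were assigned to transcripts that start between 58640546 and 58640564, which held 97.6% of Abcg2 counts in replicate 1 and 96.3% in replicate 2. These transcripts together have 166 read-length words that no other Abcg2 transcript has. Abcg2-201, which starts at 58596671, had 0 and 10.0 counts, and Abcg2-209, which starts at 58584523, had 0 in both libraries. Abcg2-201 was quantified at a length of 2492 bases, while its M21 model, used here for starts, exons and words, has 5717. Within the group with most reads Abcg2-202, with the full 1971 coding bases, held 67.9% and 70.9% of counts. The fragment Abcg2-207, of 603 bases and with no annotated end, held 12.1% and 8.64% of counts but 31.1% and 25.3% of TPM. Neither Abcg2-202 nor Abcg2-207 has a read-length word of its own (0 of 2143 and 0 of 568), so their division rests on where along shared exons the reads fell. Counting only the transcripts with all 1971 coding bases, Abcg2 stood at 19.5 and 17.0 TPM, or 18.2 ± 1.77 TPM, below the mean of Hmox1.

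The sequences before 2 of the Abcg2 start sites are shown because nearly all reads were assigned to the downstream start and at most 10.0 to Abcg2-201 (RefSeq, GRCm38.p6, plus strand, chr6:58596422-58596671 and chr6:58640296-58640545). Capitals mark the same motifs as above.
Abcg2 upstream start: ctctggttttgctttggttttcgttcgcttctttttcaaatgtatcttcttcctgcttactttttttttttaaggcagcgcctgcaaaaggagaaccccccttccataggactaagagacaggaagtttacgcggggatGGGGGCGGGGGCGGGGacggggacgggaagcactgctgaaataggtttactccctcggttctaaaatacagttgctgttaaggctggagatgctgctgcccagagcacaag
Abcg2 downstream start: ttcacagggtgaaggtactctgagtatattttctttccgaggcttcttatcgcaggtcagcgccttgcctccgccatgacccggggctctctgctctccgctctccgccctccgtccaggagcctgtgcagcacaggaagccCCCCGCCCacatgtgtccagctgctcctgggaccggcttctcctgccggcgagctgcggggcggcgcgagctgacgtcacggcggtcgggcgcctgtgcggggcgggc
The upstream start has 4 overlapping matches to CCNCNCCC between 111 and 103 bases before it. The downstream start, to which the reads were assigned, has 1 such match, at 108 bases before it. Neither has a GATA match. RefSeq windows were found for 8 of the 10 members, all but Hmox1 and Slc48a1. Of these 13 windows 8 hold CCNCNCCC, 2 a GATA motif and 2 TGACNNNGC, against 45.9%, 26.5% and 10.2% of all 32851 windows. Some members have several windows, and none of those of Hmox2 lies at the start of Hmox2-201.

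**Figure D3:**
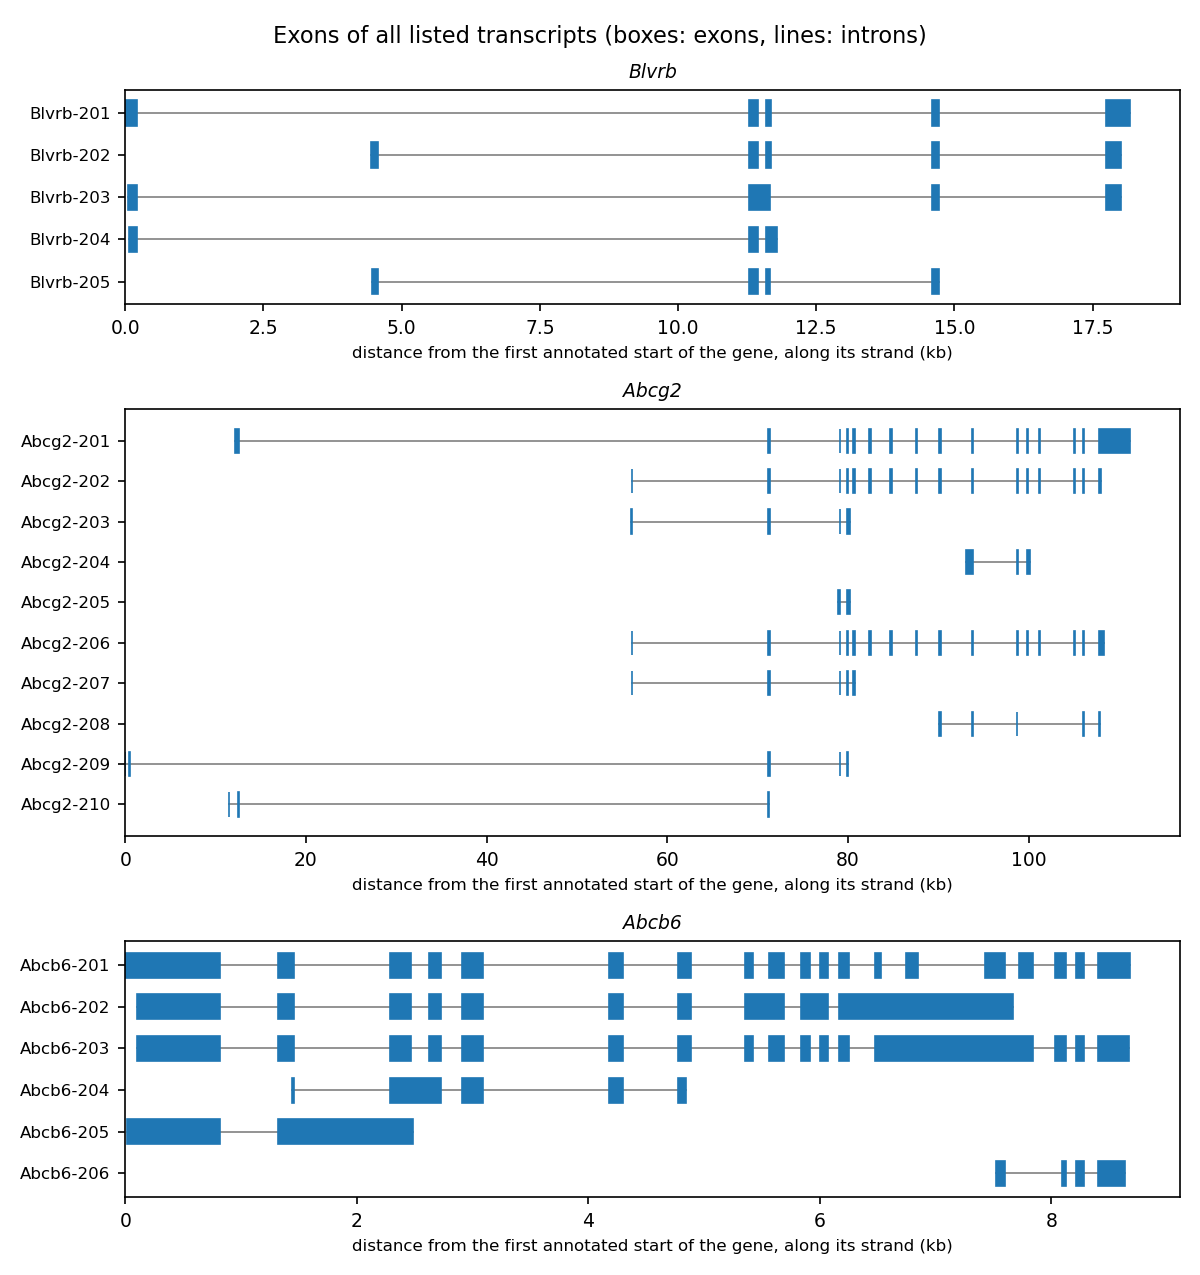
Boxes are exons and lines introns, in GENCODE M21, of all listed Blvrb, Abcg2 and Abcb6 transcripts. The axis is distance in kb from the first annotated start along the gene's strand. Blvrb-202 and Blvrb-205 begin downstream of the other Blvrb transcripts, and Abcg2-202 begins beside Abcg2-203, Abcg2-206 and Abcg2-207. Abcb6-206 spans only the region of the 3′ end of Abcb6-201 and is spliced differently there.

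By gene TPM, the transporters Abcb10, Abcb6 and Slc48a1 were the most abundant members after Blvrb. Abcb10 encodes an ATP-driven transporter of the inner mitochondrial membrane that binds the iron importer mitoferrin-1 and is needed in erythroid cells. It stood at 520.1 and 479.5 TPM, or 499.8 ± 28.7 TPM (SD, n = 2), at rank 219. Its 35642 and 29931 expected counts were the most of all members in each library. All of its counts fell on 1 listed transcript, Abcb10-201, of 13 exons and 4306 bases, and none of its words occurs in another listed gene. The antisense gene Gm45890, which overlaps 444 of its exonic bases, is not among the listed genes, so the comparison of words left it out. Whether reads of Gm45890 were counted for Abcb10 was not tested. Abcb10 lies on chromosome 8 from 123952459 to 123983122 on the minus strand.

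Slc48a1 encodes HRG1, which brings haem out of lysosomes into the cytosol. It stood at 127 TPM in replicate 1 and 134 TPM in replicate 2, from 4996 and 4857 expected counts, with a mean of 131 ± 4.89 TPM (SD, n = 2). Slc48a1-201, of 438 coding bases, held 99.6% and 99.8% of those counts. The gene lies on chromosome 15 from 97778520 to 97792692 on the plus strand and shares only 29 exonic bases with Hdac7 on the other strand.

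Abcb6, a porphyrin transporter that carries the Langereis blood group antigen, was listed at 237 TPM in replicate 1 and 243 TPM in replicate 2, from 5064 and 4681 expected counts, with a mean of 240.2 ± 3.85 TPM (SD, n = 2) at rank 480. This gene value rested largely on a short fragment. Abcb6-206, of 416 bases at the 3′ end and annotated without the start of its mRNA or coding sequence, had 857 and 818 counts, and its short length turned these into 140.3 and 147 TPM. The full-length Abcb6-201, of 19 exons and 2526 coding bases, had 3613 and 3358 counts but 76.8 and 78.4 TPM, or 77.6 ± 1.11 TPM. Abcb6-206 lacks exon 16 of Abcb6-201 and begins its next exon inside exon 17. Only 32 of its 381 words occur in no other Abcb6 transcript, so its reads are hard to separate from those of Abcb6-201. Measured by Abcb6-201, Abcb6 lay below Slc48a1, and 3 rather than 4 members passed 100 TPM.

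Abcb10 exceeded Abcb6 at a log2 ratio of 1.06 ± 0.11 from gene TPM, and of 2.69 when the full-length Abcb6-201 alone was compared. A further gene model, Gm29253, runs through Abcb6 on the same strand (chromosome 1 from 75171731 to 75185146) and shares 2932 exonic bases with it. Only 12.6% and 12.7% of Abcb6 words, weighted by counts, were found in no other gene, and Gm29253 was assigned 1184 and 1618 counts. The level of Abcb6 therefore depends on how the reads were divided with Gm29253. Abcb6 lies on the minus strand of chromosome 1 from 75171717 to 75180392.

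Most members, like most genes, differed little between the libraries. After TMM scaling (edgeR's adjustment of library sizes), none of the 9 members with a mean of 50 or more counts differed over 1.5-fold. Of 9309 genes with as many counts 3.86% did, so this count does not set the members apart. No test was made over 1 group of 2 libraries, and the intervals cover counting error alone. The interval of the replicate ratio included 0 on the log2 scale for Hmox1, Hmox2, Abcb6 and Flvcr2 and excluded it for the other 6. All 6 were among the 9 members with enough counts, and the interval excluded 0 for 46% of the 9309 genes. Hmox1, Hmox2 and Abcb6 each had a log2 ratio of replicate 1 over replicate 2 of -0.02. Blvra differed most among the 9, at 0.53 (0.22 to 0.85), which is larger than in 94.9% of those genes. Abcg2 followed at 0.28 (0.14 to 0.42), also higher in replicate 1, and Flvcr1 lay at -0.21 (-0.35 to -0.07), higher in replicate 2. For Blvrb, Slc48a1 and Abcb10 the ratios were -0.09, -0.10 and 0.11. Flvcr2, from 3 and 9 counts, had an interval from -4.25 to 0.28.

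**Figure D4:**
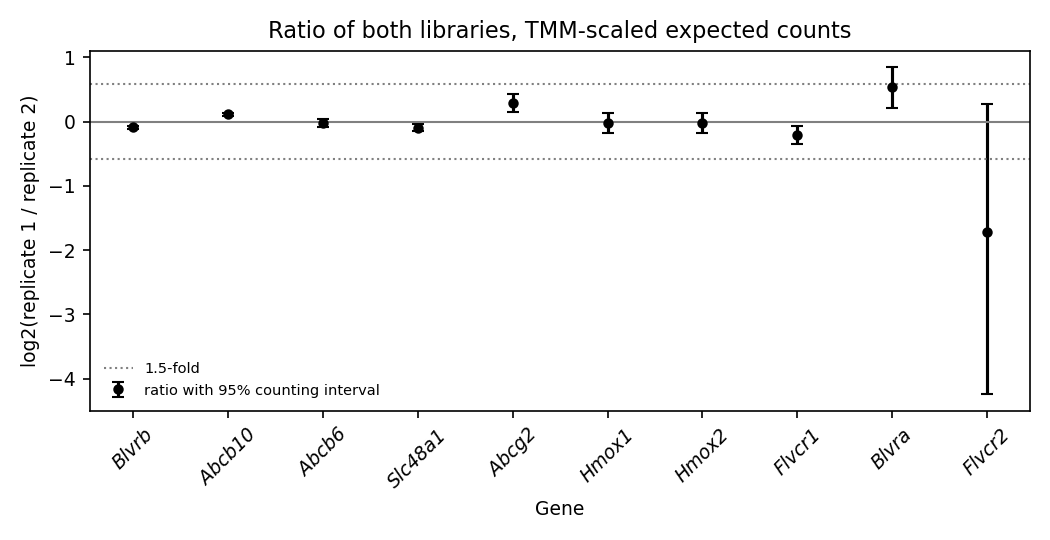
Points give the log2 ratio of replicate 1 over replicate 2 per gene from TMM-scaled expected counts, with 95% counting intervals as bars and 1.5-fold as dotted lines. The 9 better-covered members lie between the dotted lines, Blvra closest to them at 0.53, and Flvcr2 has the widest interval.

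The surrounding genes of haem handling were unevenly present. Of 34 other pathway genes 21 were at 1 TPM or more in both libraries, against 41.2% of all nuclear protein-coding genes. Another 10 had 0 counts in both, and the share of all genes at 0 counts was not computed. A value of 0 allows up to 3 counts, or 0.147 CPM (counts scaled to depth) in replicate 1 and 0.162 CPM in replicate 2. All 8 mitochondrial partners listed were among the detected genes. Tmem14c, which moves a haem precursor into the mitochondrial matrix, reached 679 ± 59.4 TPM and Slc25a39, a mitochondrial carrier, 457 ± 61.3 TPM (SD, n = 2). Both levels were of the order of that of Abcb10.

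Of 4 genes for partners of haem breakdown and for bilirubin handling, 2 were detected. Cyb5r3, a cytochrome b5 reductase, stood at 209 and 239 TPM and Por, which feeds electrons to the haem oxygenases, at 64.5 and 72.6 TPM. Ugt1a1, which conjugates bilirubin for excretion, had 0 counts in both libraries. Of 5 regulators of Hmox1 all were detected, led by the small Maf gene Mafk at 95.1 ± 0.912 TPM and by Nfe2l2, which encodes the activator NRF2, at 66.6 ± 0.926 TPM.

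None of the 5 genes listed for capture or uptake of haem or haemoglobin reached 1 TPM, against 41.2% of all nuclear protein-coding genes that did. Hpx, Hp, Cd163 and Slc46a1 had 0 counts in both libraries, and Lrp1, the haemopexin receptor, stood at 0.44 and 0.04 TPM. Hpx is also in the hepatocyte list and Cd163 in the macrophage list. Among haem-binding proteins Hebp1 reached 363 and 378 TPM and Pgrmc2 22.6 and 19.4 TPM, while Hebp2 had 0 counts. Of the other transporters related to Flvcr1, Slc49a4 stood at 6.86 ± 0.0636 TPM and Slc49a3 had 0 counts, and Abcc5, an exporter described for haem, stood at 50.7 ± 2.08 TPM. Among the relatives of Abcg2 only Abcg4 was detected, at 41.4 and 48.5 TPM. Abcg1 stood at 0.07 and 0.17 TPM, and Abcg3, Abcg5 and Abcg8 had 0 counts.

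**Figure D5:**
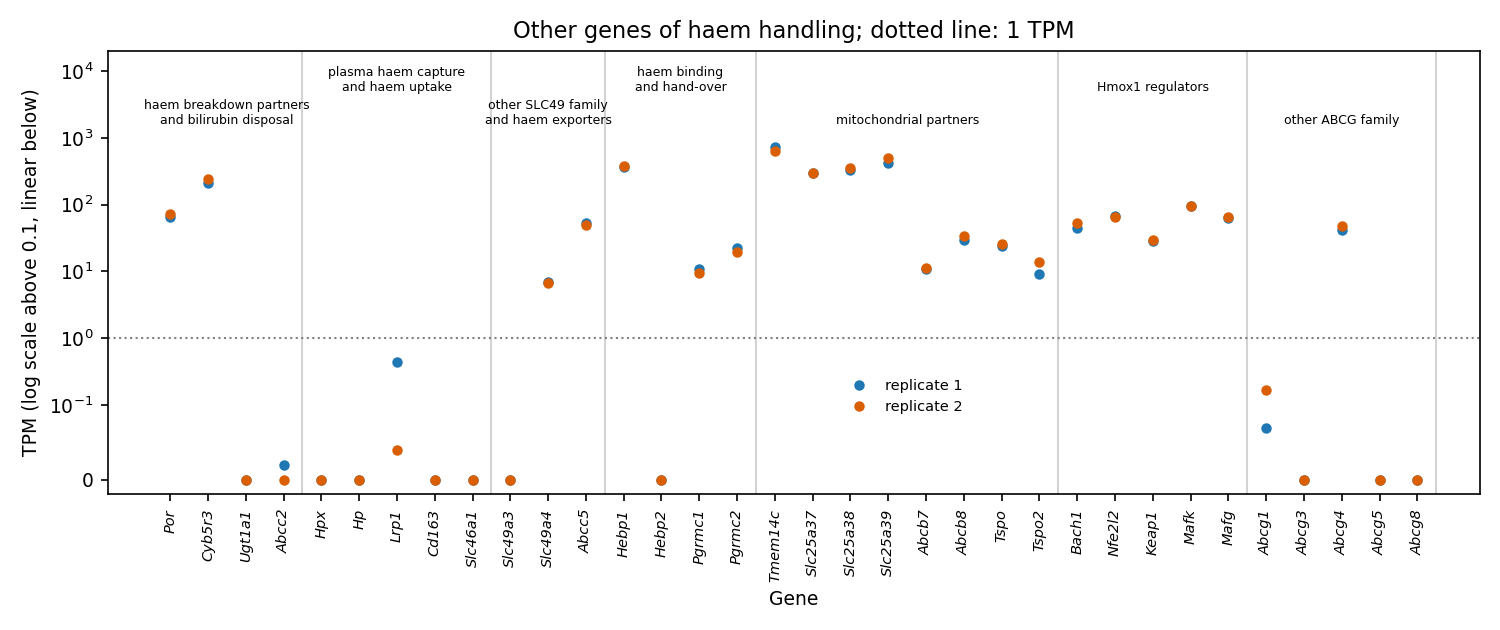
Points give the TPM of 34 other genes of haem handling by group in replicate 1 (blue) and replicate 2 (orange), on an axis that is logarithmic above 0.1 and linear below. All 8 mitochondrial partners lie above the dotted line at 1 TPM, and the 5 genes of haem capture and uptake lie below it.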

How the data were processed

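The deposited gene and transcript tables of 2 libraries were used. Per the file manifests, reads were aligned to mm10 and quantified by the authors with GENCODE M4. The sources used here do not name the aligner or the counter. Per the file headers, each row gives an expected count, which is an estimated count that need not be whole, and TPM. The deposited tables also give a posterior mean TPM that contains a prior and the percent of a gene's TPM held by each transcript. Names and coordinates came from GENCODE M21 on the same assembly. Of 45 listed member transcripts 44 matched it, 4 with another length (Abcg2-201, Abcg2-205, Hmox1-201 and Hmox1-202). Read length, 36 bases, was taken from the gap between the deposited lengths and effective lengths.

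Levels are deposited TPM, and detection means 1 TPM in both libraries. Read-length words were compared on both strands among listed transcripts with M21 sequences. Start sites within 1000 bases were grouped. Replicate ratios used expected counts rounded to whole numbers, TMM scaling in edgeR 4.0.16 (R 4.3.3) and exact 95% Clopper-Pearson intervals. The 1.5-fold rule was checked on counts simulated with counting error alone, which leaves out any other spread between libraries. The intervals were not checked. DESeq2 1.42.0 size factors were an alternative. No molecular identifiers are stated, so intervals cover counting error only. The transcripts with the longest CCDS coding sequence were added as an alternative after seeing the data. All members were named; from each other list, the 2 highest and those at 0 counts. Members, lists and rules were chosen with earlier results of these data known.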

Additional observations from a re-analysis of the deposited data

How the results depend on the processing

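The number of detected members was 9 under every alternative run, including limits of 0.5 and 5 TPM, and 4 members stood at 100 TPM or more, except 3 with the longest coding transcripts alone, a setting chosen after seeing the data. The median member, at 32.0 TPM, was 38.4 without adult globin and mitochondrially encoded genes, 26.9 with the longest coding transcripts alone, 42.7 as CPM from expected counts, and 29.2 to 34.8 with either library left out. The log2 ratio of Hmox2 over Hmox1 was -0.0084 with posterior mean TPM, -0.087 from expected counts and -0.12 with the longest coding transcripts alone (-0.06 to -0.04 with either library left out). That of Blvrb over Blvra was 6.46 with the longest coding transcripts alone (7.19 to 7.86 with either library left out). Flvcr1 over Flvcr2 fell to 3.93 on log2 of TPM + 1, where the added 1 sets the value of Flvcr2 (6.62 to 8.18 with either library left out). Abcb10 over Abcb6 was 2.75 from expected counts, 1.18 with protein-coding transcripts alone and 2.69 with the longest coding transcripts alone (0.98 to 1.13 with either library left out). No ratio changed sign. At a lower threshold of 0.32 on the log2 scale 1 member differed between the replicates, Blvra (16.7% of genes), and without a filter on low counts 1, Flvcr2 (36.4%). A divided transcript pool was found for 5 members, and for 4 to 6 under the alternatives. No paired analysis was possible because the series has 1 group. Depth limits Flvcr2, with 3 and 9 counts, and short reads limit every division among overlapping transcripts or genes.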
